A study of Rattus norvegicus with 30 samples.

Results

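Interferon-stimulated genes were followed in cultured rat hepatocytes exposed to the plasticiser diisononyl phthalate (DINP). The 9 genes were Irf1, Irf7, Isg15, Mx1, Mx2, Oas1a, Ifit3, Bst2 and Ifi27. Every probe set that the platform annotation gives to one of them alone, by its current or an older symbol, was taken, which made 10 probe sets of the 31042 on the array, and 9 of the 14217 named genes. Of these, 8 probe sets for 8 genes were bright enough to enter the test of 18625 probe sets. The single Mx1 probe set and a second Mx2 probe set were dimmer and are given by their values alone.

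The cells were primary hepatocytes of male Sprague Dawley rats, thawed from a commercial stock and dosed on day 3 of culture. Wells received DINP at 25 mM or 100 mM for 48 h or the vehicle, 1% DMSO, for 48 h, and the same 3 treatments were run for 24 h, which made 6 groups of 5 arrays. The dose unit is the one the labels print and could not be checked. The labels describe the wells of a group as independent cultures. Nothing in the labels names the donor animals or their age, and each p-value here therefore measures well-to-well spread, which may be technical. All 6 groups received DMSO and the same culture before dosing.

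Type I interferons bind a receptor pair whose kinases start a signal that leads to the complex ISGF3, which holds IRF9. ISGF3 binds the interferon-stimulated response element (ISRE) in promoters, whereas interferon gamma acts mainly through the gamma-activated site (GAS). Irf1 and Irf7 are transcription factors of this response, Irf7 being the one that amplifies type I interferon production. Isg15 is a ubiquitin-like modifier, Mx1 and Mx2 are dynamin-like antiviral GTPases, and Oas1a makes the oligoadenylates that activate RNase L. Ifit3 is a tetratricopeptide-repeat protein of the antiviral response, Bst2 (tetherin) holds budding virus at the cell surface, and Ifi27 is a small hydrophobic membrane protein. Hepatocytes respond to type I interferons and also express a basal level of several of these genes.

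The promoters are shown because the ISRE and GAS are what the pathway acts through. RefSeq promoter sequences of assembly GRCr8, from 250 bases before to 50 after the start site, were found for 7 of the 9 genes, all but Isg15 and Mx2. The ISRE core was searched as GAAA, then NN, then GAAA, and the GAS as TTCNNNGAA, where N is any base. Both were searched on both strands, and the GAS reads the same on either. The ISRE core was in 5 of the 7 promoters (Irf7, Oas1a, Ifit3, Bst2 and Ifi27), against 3.92% of all 33469 promoters of 300 bases. The GAS was in 3 of the 7 (Irf1, Oas1a and Bst2), against 8.87% of all. Mx1 held neither in this window, which reaches into the annotated gene, as that of Oas1a does. The Irf7 window lies wholly inside the annotated Irf7 gene. The 250 bases before the start are given 5′ to 3′ on the gene's own strand for a GAS-only promoter (Irf1), an ISRE-only promoter with a single match (Ifit3), one with both (Bst2) and one with separate ISRE matches (Ifi27). Capitals mark the matches.
Irf1: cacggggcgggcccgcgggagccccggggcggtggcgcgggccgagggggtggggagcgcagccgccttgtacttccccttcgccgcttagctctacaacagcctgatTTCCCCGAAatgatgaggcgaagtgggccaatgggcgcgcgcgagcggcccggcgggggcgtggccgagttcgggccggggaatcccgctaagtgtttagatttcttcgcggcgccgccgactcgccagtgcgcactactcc
Ifit3: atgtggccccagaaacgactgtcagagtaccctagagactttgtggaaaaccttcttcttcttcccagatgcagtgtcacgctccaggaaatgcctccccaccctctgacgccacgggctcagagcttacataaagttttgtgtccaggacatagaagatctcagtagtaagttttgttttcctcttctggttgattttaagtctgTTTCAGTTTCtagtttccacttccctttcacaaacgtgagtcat
Bst2: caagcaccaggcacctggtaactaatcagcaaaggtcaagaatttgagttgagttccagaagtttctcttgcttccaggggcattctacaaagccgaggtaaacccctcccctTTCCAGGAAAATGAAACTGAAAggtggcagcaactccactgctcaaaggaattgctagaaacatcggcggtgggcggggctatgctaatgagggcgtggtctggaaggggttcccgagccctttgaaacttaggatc
Ifi27: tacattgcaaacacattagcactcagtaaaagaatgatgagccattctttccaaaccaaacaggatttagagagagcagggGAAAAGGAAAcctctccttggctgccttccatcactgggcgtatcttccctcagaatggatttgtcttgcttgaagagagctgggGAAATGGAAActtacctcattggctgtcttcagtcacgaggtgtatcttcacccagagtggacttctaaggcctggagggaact
These windows lie at chr10:38417685-38417934 on the plus strand, chr1:241527076-241527325 on the plus strand, chr16:18254968-18255217 on the minus strand and chr6:128355062-128355311 on the plus strand. The Irf1 GAS runs from 142 to 134 bases before the start, and the Ifit3 ISRE core, on the reverse strand, from 44 to 35. In Bst2, ISRE cores at 131 to 122 and 125 to 116 overlap each other, and the first overlaps a GAS at 137 to 129. The Ifi27 cores lie at 169 to 160 and 84 to 75. For Irf7 and Oas1a only the matches are given, because the window lies inside the annotated gene for Irf7 and reaches into it for Oas1a. Their positions are counted from the start used for the window, so the Irf7 match lies inside the annotated gene. Irf7 held TTTCATTTTC, the core read on the reverse strand, 69 to 60 bases before the start. Oas1a held the overlapping cores GAAATGGAAA and GAAACTGAAA at 41 to 32 and 35 to 26, and the GAS TTCCCAGAA at 199 to 191. A match describes these letters and shows no binding.

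The values are signal intensities scaled to one mean per array, and each group mean rests on 5 arrays. Differences are given in log2(signal + 16) with limma's moderated standard error, which understates the change of dim genes, and a gene is called at an adjusted p under the threshold of 0.05. Of 12 hepatocyte markers 11 were tested, and the 30-array mean signal was 109015 for Alb and 117503 for Serpina1. Some of these markers moved with the groups. Against the vehicle, the enzyme genes Tat (from -0.80 to -0.92) and Ass1 (from -0.28 to -0.45) were lower in all 4 comparisons, and the receptor gene Asgr1 was higher in all 4 (from 0.49 to 0.67). The cytochrome P450 gene Cyp2c11 was lower in 3, by up to -1.12. Of 17 Kupffer cell and macrophage markers 11 were tested, among them Cd14 and Lyz2 with mean signals of 19263 and 8543. Cd163, Adgre1 and Ptprc of that list were too dim to test. Of the plasmacytoid dendritic cell markers, Tcf4 was tested and Bcl11a was too dim. The array of vehicle 48 h replicate 1 stood farthest from its group, with 2.63% of probe sets apart from the other 4 arrays, against 0.859 to 1.82% for the other arrays.

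The clearest pattern was a lower level at 48 h than at 24 h. Irf7, Isg15, Mx2 and Bst2 were lower at 48 h in vehicle, 25 mM and 100 mM wells alike, and Oas1a passed the test in both DINP arms. In vehicle wells 4 of the 8 tested genes were called lower and 0 higher, where 14.4% of all probe sets were called and 7.68% were called lower. At 25 mM 5 of 8 were called lower and 0 higher, against 14.6% called and 8.2% called lower among all probe sets. At 100 mM 5 of 8 were called lower and 0 higher, against 8.89% called and 4.6% called lower. The median difference over the 8 genes, 48 h minus 24 h, was -0.44 in vehicle wells, -0.68 at 25 mM and -0.62 at 100 mM, beside 0.00, 0.01 and -0.02 over all probe sets tested. Each of these calls held when any 1 of the 10 arrays compared was left out. The DINP arms were compared between times after the data had been seen, and time in culture and time since dosing pass together in every arm.

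**Figure D1:**
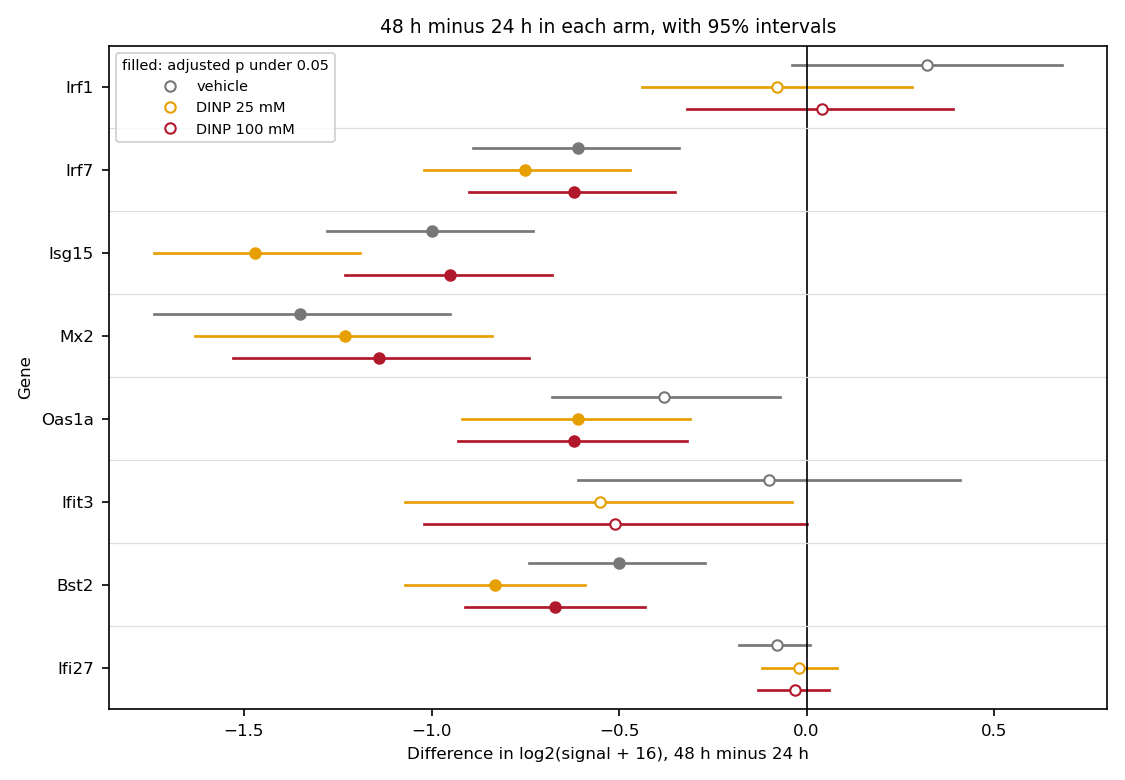
Difference in log2(signal + 16), 48 h minus 24 h, for the 8 tested genes (rows) in vehicle, DINP 25 mM and DINP 100 mM wells. Lines are 95% intervals and filled points have an adjusted p under 0.05. Irf7, Isg15, Mx2 and Bst2 lie left of 0 in all 3 arms, from -0.50 for Bst2 in vehicle to -1.47 for Isg15 at 25 mM, while Irf1 and Ifi27 lie near 0 or, for Irf1 in vehicle, at 0.32.

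The 8 tested genes were also compared between DINP and vehicle wells at each dose and time. At 24 h, 25 mM called 0 of the 8, where 13.3% of all probe sets were called, although 3 (Isg15, Mx2 and Ifi27) had an unadjusted p under 0.05 in limma. At 24 h, 100 mM called 2 of the 8, Mx2 lower and Ifi27 higher, against 12.3% of all. At 48 h, 25 mM called 2, Bst2 lower and Ifi27 higher, against 17.9%. At 48 h, 100 mM called 2, Ifit3 lower and Ifi27 higher, against 14.6%. The median difference from the vehicle over the 8 genes was 0.06 and 0.00 at 25 and 100 mM after 24 h and -0.22 and -0.17 after 48 h, beside -0.05, -0.05, -0.03 and -0.07 over all probe sets. Both doses share the vehicle wells of their time. Counts of 0 or 2 among 8 are near the background share and are not read as a result about these genes.

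**Figure D2:**
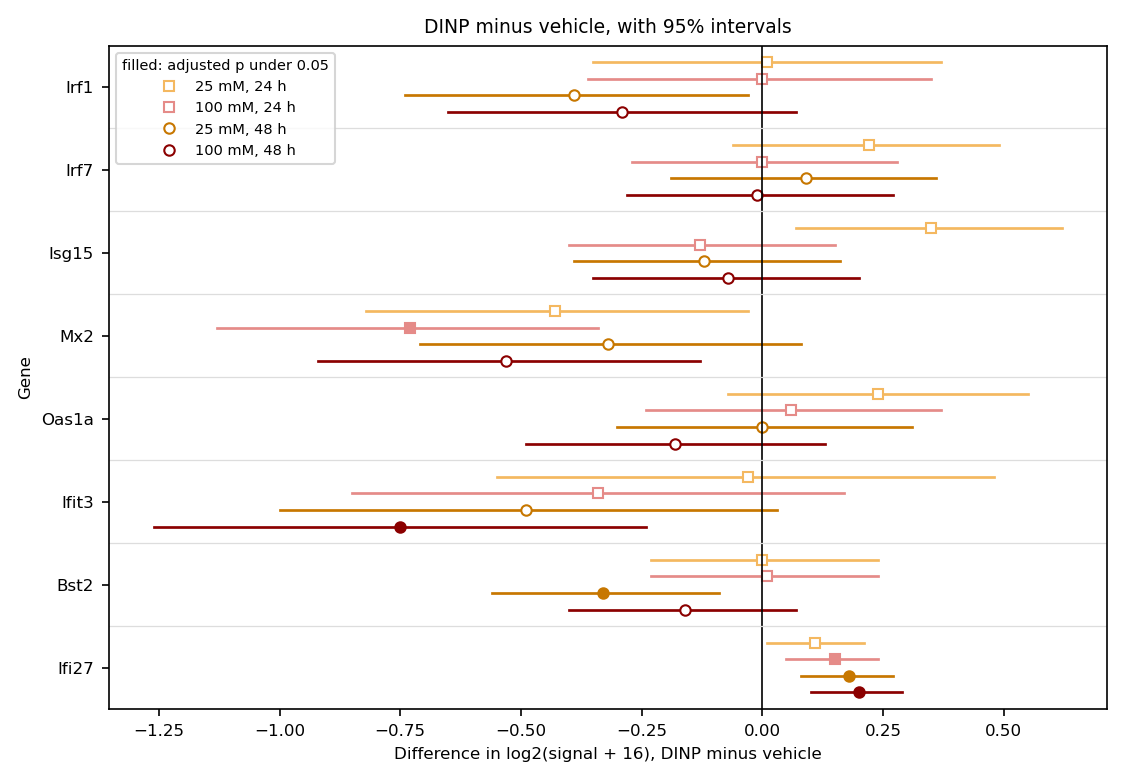
Difference in log2(signal + 16), DINP minus vehicle, for the 8 tested genes (rows) at each dose and time. Lines are 95% intervals and filled points have an adjusted p under 0.05. Ifi27 lies right of 0 throughout, between 0.11 and 0.20 with the narrowest intervals, and Mx2 lies left of 0 throughout, between -0.32 and -0.73.

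Among the transcription factors, Irf7 was lower at 48 h in each arm. Irf7 (Entrez gene 293624, chr1:205796956-205800543, GRCr8) had signals of 2767, 3715, 2917, 2425 and 3093 in the vehicle wells at 48 h, against 3784, 4469, 5252, 5161 and 4160.4 at 24 h. At 25 mM its signals were 3273, 3081, 3429, 3500.1 and 2499 at 48 h, against 4972, 5979, 6429, 5051 and 4193 at 24 h. At 100 mM they were 3329.6, 2642, 3651, 2839 and 2418 at 48 h, against 4028, 5682, 4772, 5143 and 3439.7 at 24 h. The 48 h wells lay below all 24 h wells in the vehicle and 25 mM arms, and in 4 of 5 wells at 100 mM. The difference was -0.61 ± 0.14 in vehicle wells (adjusted p = 0.00178), -0.75 ± 0.14 at 25 mM (adjusted p = 0.000211) and -0.62 ± 0.14 at 100 mM (adjusted p = 0.00258), or 1.53-, 1.68- and 1.54-fold lower. DINP left Irf7 without a call at either time, the differences from the vehicle running between -0.01 and 0.22. At 48 h the 95% intervals of the DINP effect were -0.19 to 0.36 at 25 mM and -0.28 to 0.27 at 100 mM.

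Irf1 (Entrez gene 24508, chr10:38417935-38424946), which is induced by interferon gamma and by NF-kB, passed no test. Its signals at 48 h were 2016, 1099.9, 883, 1247 and 1537.5 in vehicle wells, 1100.1, 889.8, 1205, 907 and 905 at 25 mM and 814, 1045, 1228, 1365 and 963 at 100 mM. The 24 h signals were 946, 1225.5, 1108, 942 and 1016 in vehicle wells, 747, 902, 1105, 1388 and 1232 at 25 mM and 1042, 1056, 808, 1029 and 1325 at 100 mM. The groups overlapped throughout, and the highest well of all, 2016 in vehicle 48 h replicate 1, was on the array that stood farthest from its group. At 48 h the difference from the vehicle was -0.39 ± 0.18 at 25 mM (adjusted p = 0.139) and -0.29 ± 0.18 at 100 mM (adjusted p = 0.309). Over the 10 fits that left out 1 array, the adjusted p at 25 mM ran from 0.037 to 0.409, passing the threshold without vehicle 48 h replicate 3. The difference between the times in vehicle wells was 0.32 ± 0.18 (adjusted p = 0.257), and 0.16 without vehicle 48 h replicate 1.

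Isg15 had the largest difference between the times of the 8 tested genes in the 25 mM arm. Isg15 (Entrez gene 298693, chr5:172066369-172067656) had signals of 2467, 2673, 2419, 1754 and 2697 in vehicle wells at 48 h, against 5445, 4560.2, 4417, 5847 and 3863 at 24 h. At 25 mM it had 2798, 1964, 2016, 2133 and 2129.8 at 48 h, against 4508, 6674, 7678, 6425 and 5602 at 24 h. At 100 mM it had 2576, 2105, 2102, 2298 and 2221 at 48 h, against 3751, 5620.0, 4503, 4614 and 3638 at 24 h. No 48 h well reached the lowest 24 h well of its arm. The difference was -1.0 ± 0.13 in vehicle wells (adjusted p = 3.51e-06), -1.47 ± 0.13 at 25 mM (adjusted p = 2.01e-09) and -0.95 ± 0.13 at 100 mM (adjusted p = 9.54e-06), or 2.00-, 2.76- and 1.93-fold lower.

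Against the vehicle, Isg15 was at 0.35 ± 0.13 after 24 h at 25 mM (95% interval 0.07 to 0.62, adjusted p = 0.087). In that comparison 3 of the 5 DINP wells lay above the highest vehicle well, and the adjusted p ran from 0.0191 to 0.249 over the 10 fits without 1 array. The call was made without DINP 25 mM 24 h replicate 1 and without vehicle 24 h replicate 4. After 24 h at 100 mM the difference was -0.13 ± 0.13 (adjusted p = 0.627), and after 48 h it was -0.12 at 25 mM and -0.07 at 100 mM. Between the doses at 24 h, 100 mM lay below 25 mM by -0.48 ± 0.13 (unadjusted p = 0.00133), a difference that did not pass once adjusted, the adjusted p being 1.0.

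Mx2 (Entrez gene 286918, chr11:50375101-50399373) had the largest such difference of the 8 in vehicle wells and was the one member called lower at 24 h with DINP. In vehicle wells its signals were 784, 1484, 646, 545 and 919 at 48 h, against 1974, 2088, 2283, 2855 and 1587 at 24 h. With 25 mM it read 804, 611, 705, 549 and 649.6 at 48 h, against 1276.5, 1538, 2422, 1378 and 1451 at 24 h. With 100 mM it read 528, 500.1, 672, 512 and 644 at 48 h, against 1216, 1709, 1143.5, 1257 and 1095 at 24 h. The times did not overlap in any arm. The difference was -1.35 ± 0.19 in vehicle wells (adjusted p = 1.02e-05), -1.23 ± 0.19 at 25 mM (adjusted p = 3.16e-05) and -1.14 ± 0.19 at 100 mM (adjusted p = 0.000147), or 2.54-, 2.35- and 2.20-fold lower.

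After 24 h at 100 mM, Mx2 fell by 0.73 ± 0.19 against the vehicle (95% interval -1.13 to -0.34, adjusted p = 0.00936), with 4 of 5 DINP wells below the lowest vehicle well. The call held without any 1 of the 10 arrays, the adjusted p running from 0.00442 to 0.0443. At 25 mM the 24 h difference was -0.43 ± 0.19 (adjusted p = 0.155), also with 4 of 5 wells below the lowest vehicle well, and it passed without DINP 25 mM 24 h replicate 3 (-0.58, adjusted p = 0.0426). At 48 h the differences were -0.32 ± 0.19 at 25 mM (adjusted p = 0.301) and -0.53 ± 0.19 at 100 mM (adjusted p = 0.0654). The 25 mM value at 48 h ran from -0.46 to -0.11 without 1 array, the smallest being that without vehicle 48 h replicate 2. The 100 mM value at 48 h passed without vehicle 48 h replicate 3 and without replicate 4 of that group, the adjusted p running from 0.0174 to 0.266.

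The second Mx2 probe set was dim and did not follow the first. Its signals were 158.5, 305, 278, 199 and 238 in vehicle wells at 48 h, against 155, 87.4, 127, 151 and 129.9 at 24 h. Across the 4 DINP groups it read between 91.8 and 302. All 5 vehicle wells at 48 h lay above all 5 at 24 h, whereas those of the tested probe set lay below. Mx1 (Entrez gene 24575, chr11:50269056-50294699) read between 86.9 and 365 over all 30 wells. Vehicle wells had Mx1 signals of 248, 364.5, 238, 169 and 204.5 at 48 h, against 165, 193, 214, 227 and 173 at 24 h. At 100 mM and 48 h, 3 of 5 wells (99.1, 86.9 and 101) lay below every vehicle well of that time and the others (218 and 320) lay inside their range, so the groups overlapped. Probes of Mx1 and Mx2 may bind each other's transcripts, and neither dim probe set was tested.

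Oas1a (Entrez gene 192281, chr12:41330423-41341130) was lower at 48 h in both DINP arms. Vehicle wells had Oas1a signals of 1479.6, 1185, 965, 975 and 1168 at 48 h, against 1390.4, 1515, 1546, 1756 and 1267 at 24 h. The 25 mM wells had 1521, 1046, 1142, 1009.9 and 1062 at 48 h, against 1323, 2038, 2521, 1850.1 and 1335 at 24 h. The 100 mM wells had 1327, 829.5, 1032, 920.0 and 972 at 48 h, against 1492, 1760.0, 1620.3, 1515 and 1403 at 24 h. At 100 mM the times did not overlap, and in the other arms 1 well at 48 h, replicate 1, lay within the 24 h range. The difference was -0.61 ± 0.15 at 25 mM (adjusted p = 0.00471) and -0.62 ± 0.15 at 100 mM (adjusted p = 0.00682). In vehicle wells it was -0.38 ± 0.15 (adjusted p = 0.0941), and -0.47 (adjusted p = 0.0454) without vehicle 48 h replicate 1, the array that stood farthest from its group. DINP differed from the vehicle by between -0.18 and 0.24, with no call. The rat genome holds several closely related Oas1 genes, whose transcripts this probe set may also bind.

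Ifit3 (Entrez gene 309526, chr1:241527326-241532469) gave a low signal, and its differences had the widest error among the members. Its signals at 48 h were 328, 338, 201.5, 201 and 352 at 25 mM and 320.2, 128, 296, 285 and 169 at 100 mM, against 467, 396, 447, 378 and 298 in vehicle wells. The 24 h signals were 551, 448, 513, 394 and 236 at 25 mM and 404, 518, 270.4, 248 and 276 at 100 mM, against 507, 350.2, 454, 435 and 384 in vehicle wells. At 48 h, 4 of 5 wells at 100 mM lay below the lowest vehicle well, and the groups overlapped by 1 well. The 48 h difference from the vehicle was -0.75 ± 0.25 at 100 mM (95% interval -1.26 to -0.24, adjusted p = 0.0393). This call held in 4 of the 10 fits without 1 array, the adjusted p running from 0.0237 to 0.147. It was lost without vehicle 48 h replicate 1, 2, 3 or 4, or DINP 100 mM 48 h replicate 2 or 5. The call was also lost without the filter on dim probe sets, under quantile normalisation or median centring, with array weights, or when only the 2 groups compared were fitted. At 25 mM and 48 h the difference was -0.49 ± 0.25 (adjusted p = 0.202), and at 24 h it was -0.03 at 25 mM and -0.34 at 100 mM. Between the times Ifit3 differed by -0.10 ± 0.25 in vehicle wells, -0.55 ± 0.25 at 25 mM and -0.51 ± 0.25 at 100 mM, none of them called.

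Bst2 (Entrez gene 378947, chr16:18250593-18254967) was lower at 48 h in each arm. In vehicle wells its signals were 20587, 23159, 18631.5, 18951.5 and 15179.8 at 48 h, against 26696, 29550.2, 31172, 26964 and 21964 at 24 h. In the 25 mM arm they were 16388, 13091, 17957, 14385 and 14896.5 at 48 h, against 23007, 30953, 28946, 32878 and 21619 at 24 h. In the 100 mM arm they were 20278, 15364, 17309.6, 18994 and 14281 at 48 h, against 27736, 27136, 28832, 29122 and 23693 at 24 h. The times overlapped by 1 vehicle well and in neither DINP arm. The difference was -0.50 ± 0.12 in vehicle wells (adjusted p = 0.00276), -0.83 ± 0.12 at 25 mM (adjusted p = 5.01e-06) and -0.67 ± 0.12 at 100 mM (adjusted p = 0.000176), or 1.42-, 1.78- and 1.59-fold lower.

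Against the vehicle at 48 h, Bst2 was at -0.33 ± 0.12 at 25 mM (adjusted p = 0.0472), with 3 of 5 DINP wells below the lowest vehicle well. That call held in 2 of the 10 fits without 1 array, which were those without vehicle 48 h replicate 5 and without DINP 25 mM 48 h replicate 3, and the adjusted p ran from 0.013 to 0.154. It was also lost without the filter, with median centring, without the variance trend, with array weights and when only the 2 groups compared were fitted. At 100 mM and 48 h the difference was -0.16 ± 0.12 (adjusted p = 0.4). After 24 h it was 0.00 ± 0.12 at 25 mM and 0.01 ± 0.12 at 100 mM, with 95% intervals of -0.23 to 0.24 and -0.23 to 0.24.

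Ifi27 (Entrez gene 170512, chr6:128355312-128361783) was higher with DINP at 48 h. At 48 h its signals were 96983, 87087, 90358, 89315 and 87345.5 at 25 mM and 90519, 99147.5, 89484, 92928 and 85480.5 at 100 mM, against 80266, 78472.5, 75959, 79238 and 85198 in vehicle wells. At 24 h they were 88669, 92531, 87763, 102811 and 85769 at 25 mM and 94669, 90038, 96733, 92690.1 and 93402 at 100 mM, against 78801, 83739.9, 90934, 82219 and 87397 in vehicle wells. At 48 h every DINP well lay above every vehicle well, and at 24 h the groups overlapped. The 48 h difference was 0.18 ± 0.05 at 25 mM (adjusted p = 0.00807) and 0.20 ± 0.05 at 100 mM (adjusted p = 0.00383), a rise of 1.13- and 1.15-fold. Both calls held without any 1 of the 10 arrays. After 24 h the difference was 0.11 ± 0.05 at 25 mM (adjusted p = 0.129) and 0.15 ± 0.05 at 100 mM (adjusted p = 0.0407). The 100 mM call at 24 h held in 3 of 10 fits without 1 array, with adjusted p from 0.0201 to 0.128, and was lost without vehicle 24 h replicate 1, 2 or 4 or any DINP 100 mM 24 h replicate but the second. That call was also lost without the filter on dim probe sets, without the variance trend and with the array round as a replicate block (adjusted p = 0.0562). Centring each array on its median took the 25 mM call at 48 h away (adjusted p = 0.102), and quantile normalisation took the 100 mM call at 48 h away (0.07, adjusted p = 0.107). Between the times Ifi27 differed by -0.08 ± 0.05 in vehicle wells, -0.02 ± 0.05 at 25 mM and -0.03 ± 0.05 at 100 mM, none of them called, although quantile normalisation called it lower in vehicle and 100 mM wells.

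**Figure D3:**
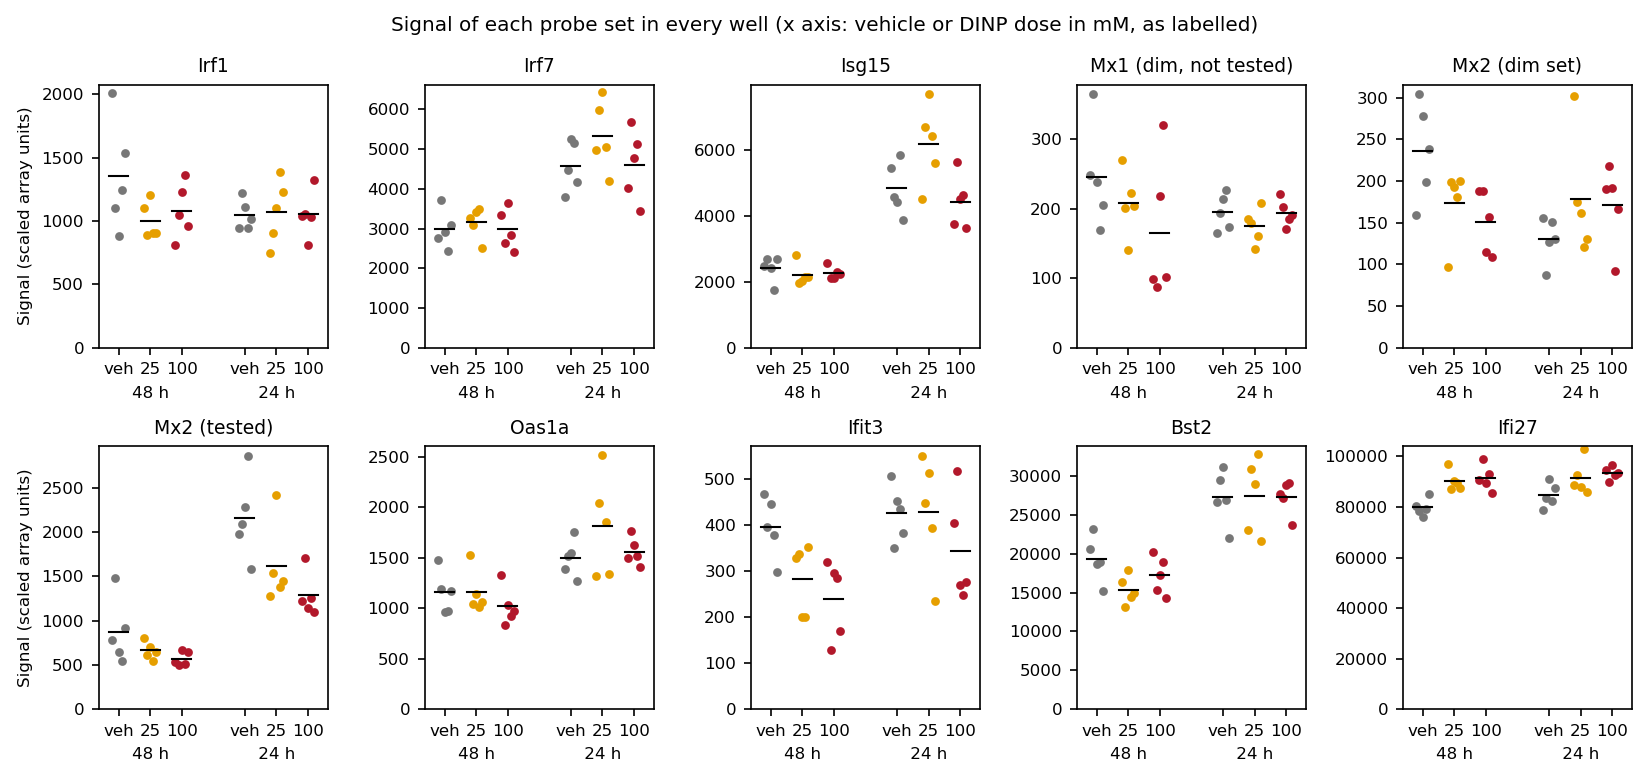
Signal (scaled array units, linear axis from 0) of all 10 probe sets in each of the 30 wells, grouped by vehicle (veh), 25 mM and 100 mM at 48 h (left) and 24 h (right). Points are wells and bars are group means of 5. The 48 h wells of Isg15 and the tested Mx2 probe set lie below the 24 h wells of the same arm, and the Ifi27 DINP wells at 48 h, 85481 and above, lie above the vehicle wells, 85198 and below.

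The doses and the times of the DINP effect were then compared directly. Between 100 mM and 25 mM, 0 of the 8 genes were called at 24 h, where 0.0107% of all probe sets passed (the genes Ccn2 and Ddx54), and 0 at 48 h, where 0.00537% passed (Fam3c). These 3 genes are named only because the counts are so small, with their values known. At 48 h the members' differences between the doses ran from -0.27 to 0.16 with standard errors of 0.05 to 0.25, and 0 had an unadjusted p under 0.05 in limma. At 24 h, 1 did, Isg15 as given above. The effect of DINP differed between the times for 0 of 8 genes at 25 mM, against 0.242% of all probe sets, and for 0 of 8 at 100 mM, against 0.0644%. At 25 mM, 1 gene (Isg15, -0.46 ± 0.19, 48 h effect minus 24 h effect, unadjusted p = 0.0208, adjusted p = 0.493) had an unadjusted p under 0.05, and at 100 mM 0 did. With standard errors of up to 0.36, the intervals leave sizeable differences possible for Ifit3, at -1.18 to 0.27 for 25 mM.

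The other genes of the pathway were read from lists drawn up by known role. Of 58 other type I interferon-stimulated genes, 40 were tested, and those called between the times were mostly lower at 48 h. In vehicle wells 9 were lower and 1 higher at 48 h. At 25 mM 15 were lower and 0 higher, and at 100 mM 9 were lower and 1 higher. Among all probe sets 14.4%, 14.6% and 8.89% were called in these arms, and 7.68%, 8.2% and 4.6% were called lower. The list medians were -0.12, -0.14 and -0.10, beside 0.00, 0.01 and -0.02 over all probe sets. Usp18, the protease that removes Isg15 from its targets, differed between the times by -0.79 ± 0.13 in vehicle wells (adjusted p = 5.25e-05), -1.20 ± 0.13 at 25 mM and -0.76 ± 0.13 at 100 mM. Rtp4, an interferon-induced chaperone of receptor transport, differed by -0.78, -1.08 and -0.96 in the same order of arms. Ifitm3, which blocks viral entry through membranes, differed by -0.73, -0.96 and -0.84. Eif2ak2, the RNA-activated kinase PKR, differed by -0.60, -0.80 and -0.54, and Parp9, an ADP-ribosyltransferase partner, by -0.61, -0.75 and -0.43. All of these values passed the test, and Rtp4, Ifitm3 and Eif2ak2 were picked with their values known. Irf9, the DNA-binding part of ISGF3, was lower at 48 h in each arm too, by -0.31 ± 0.09 in vehicle wells, -0.59 ± 0.09 at 25 mM and -0.59 ± 0.09 at 100 mM. It belongs to a list of receptors, kinases and STATs, of which 10 were tested. That list had 2 higher and 3 lower in vehicle wells, and 1 higher and 2 lower in each DINP arm. Its medians were -0.05, 0.03 and 0.07.

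With DINP, the same list split in direction. After 24 h, 4 were higher and 3 lower at 25 mM, and 2 higher and 5 lower at 100 mM. After 48 h, 4 were higher and 7 lower at 25 mM, and 1 higher and 6 lower at 100 mM. These were 7 of 40 called at each dose after 24 h, near the 13.3% and 12.3% of all probe sets, and 11 and 7 of 40 after 48 h, against 17.9% and 14.6%. Tor3a, an endoplasmic reticulum ATPase, rose in all 4 comparisons, by 0.84 ± 0.15 and 0.62 ± 0.15 at 25 and 100 mM after 24 h and by 0.79 ± 0.15 and 0.58 ± 0.15 after 48 h. Plscr1, a phospholipid scramblase, rose by 0.49 ± 0.08 at 25 mM and 0.33 ± 0.08 at 100 mM after 24 h. Cmpk2, a mitochondrial nucleotide kinase, differed by -1.11 ± 0.16 at 25 mM (adjusted p = 3.29e-06) and -0.53 ± 0.16 at 100 mM (adjusted p = 0.0206) after 48 h. Ifit2, a relative of Ifit3, differed by -0.49 ± 0.10 and -0.42 ± 0.10 at those doses. Rsad2 (viperin), which makes a chain-terminating nucleotide, differed by -0.57 ± 0.17 at 25 mM after 48 h (adjusted p = 0.0161). Isg20, an exonuclease, was lower in all 4 comparisons, by -0.30 and -0.27 after 24 h and -0.32 and -0.30 after 48 h. Parp14 differed by -0.34 at 100 mM after 24 h and -0.39 at 25 mM after 48 h.

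Upstream of the members, few ligand genes were measurable. Of 17 interferon and related cytokine genes, 3 were tested, Ifnb1, Ifng and Ifnk were too dim, and the Ifna genes were not analysed here. Il15, a cytokine that sustains natural killer cells, was lower at 25 mM by -0.41 ± 0.14 after 24 h and -0.41 ± 0.14 after 48 h. Of the receptor and signal transduction genes, 10 were tested. At 48 h Ifnar1, a chain of the type I receptor, rose by 0.64 ± 0.17 at 25 mM (adjusted p = 0.00783) and 0.70 ± 0.17 at 100 mM (adjusted p = 0.00417), while in vehicle wells it was lower at 48 h than at 24 h by -0.55 ± 0.17. Ifnar2, the other chain, rose by 0.25 after 24 h and 0.22 after 48 h at 25 mM. Irf9 differed from the vehicle at 48 h by -0.31 ± 0.09 at 25 mM (adjusted p = 0.00941) and -0.40 ± 0.09 at 100 mM (adjusted p = 0.00107), and Jak1 by -0.25 ± 0.07 at 100 mM.

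Of 12 feedback inhibitors, 11 were tested, and at each dose 2 were lower after 48 h, which is near the 17.9% and 14.6% of all probe sets called at 25 and 100 mM and is not read as a result about the list. Ptpn2, a phosphatase of the pathway, differed at 48 h by -0.42 ± 0.08 at 25 mM and -0.27 ± 0.08 at 100 mM. Socs3, a suppressor of cytokine signalling, differed by -0.87 ± 0.25 at 100 mM (adjusted p = 0.0145), and Ptpn11 by -0.26 ± 0.08 at 25 mM. The next list held 5 tested genes, of other Irf factors and of Irf2-binding proteins. Irf3, which starts interferon transcription, differed by -0.22 ± 0.07 at 25 mM after 48 h. The corepressor-like Irf2bpl differed by -0.48 and -0.40 at 25 and 100 mM after 24 h and by -0.33 at 25 mM after 48 h. Of 12 nucleic acid sensors and adaptors tested, 1 was called with DINP, Tbk1, the kinase that activates Irf3 and Irf7. It was at -0.24 ± 0.08 at 25 mM after 48 h, where 17.9% of all probe sets were called.

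Genes that answer mainly to interferon gamma and to NF-kB are the nearest neighbours of this response. Of 14 gamma-type genes tested beside Irf1, 5 were lower and 1 higher at 48 h in vehicle wells. At 25 mM 4 were lower and 0 higher, and at 100 mM 3 were lower and 0 higher. Over all probe sets, 14.4%, 14.6% and 8.89% were called in the 3 arms, and 7.68%, 8.2% and 4.6% were called lower. Ccl5, a chemokine for T cells, differed by -0.73 ± 0.24, -1.12 ± 0.24 and -0.98 ± 0.24 between the times in the 3 arms, and was picked with its values known. With DINP at 24 h the GTPase gene Irgm2 rose by 0.39 ± 0.07 at 25 mM and 0.26 ± 0.07 at 100 mM, and Gch1, which starts tetrahydrobiopterin synthesis, by 0.28 ± 0.06 and 0.29 ± 0.06. At 48 h Irgm, another such GTPase gene, differed by -0.46 ± 0.14 and -0.49 ± 0.14. Of 15 NF-kB targets tested, 0 were higher and 2 lower at 25 mM after 24 h, and 1 higher and 1 lower at 100 mM. After 48 h, 1 was higher and 4 lower at 25 mM, and 2 were higher and 3 lower at 100 mM. Among all probe sets 13.3% and 12.3% were called at 25 and 100 mM after 24 h, and 17.9% and 14.6% after 48 h. The 24 h counts are near that share and are not read as a result about the list. Cxcl1, a neutrophil chemokine, was lower in 3 of these comparisons, by -0.77 at 25 mM after 24 h and -0.63 and -0.49 at 25 and 100 mM after 48 h. Tnfaip3, the inhibitor A20, was lower in all 4 comparisons with the vehicle, from -0.45 to -0.65, while Sod2 rose by 0.26 and 0.26 at 100 mM. Between the times, 2 of the 15 NF-kB targets were higher and 2 lower at 48 h in vehicle wells. At 25 mM 1 was higher and 2 lower, and at 100 mM 0 higher and 2 lower, beside the shares for the 3 arms given above. The list medians were 0.17, 0.01 and 0.05, so the list did not fall as a whole. Nfkbiz, an inducible nuclear IkB protein also picked with its values known, differed between the times by -0.98 ± 0.09, -1.02 ± 0.09 and -0.82 ± 0.09.

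Antigen presentation genes were called in both directions between the times. Of 25 tested, 3 were higher and 3 lower at 48 h in vehicle wells, 2 higher and 4 lower at 25 mM, and 3 higher and 3 lower at 100 mM, where 7.68%, 8.2% and 4.6% of all probe sets were called lower. The list medians were -0.01, -0.02 and 0.04. Against the vehicle at 48 h, 5 rose and 1 was lower at 100 mM, and 3 rose and 3 were lower at 25 mM. Among all probe sets 14.6% were called at 100 mM and 17.9% at 25 mM, and the list medians were 0.0 and 0.01. Psme2 and Psme1, subunits of the interferon-inducible proteasome activator, rose by 0.23 and 0.19, and B2m, the light chain of class I molecules, by 0.20, all at 100 mM. Erap1, the peptide-trimming aminopeptidase, was lower in all 4 comparisons, from -0.29 to -0.40.

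**Figure D4:**
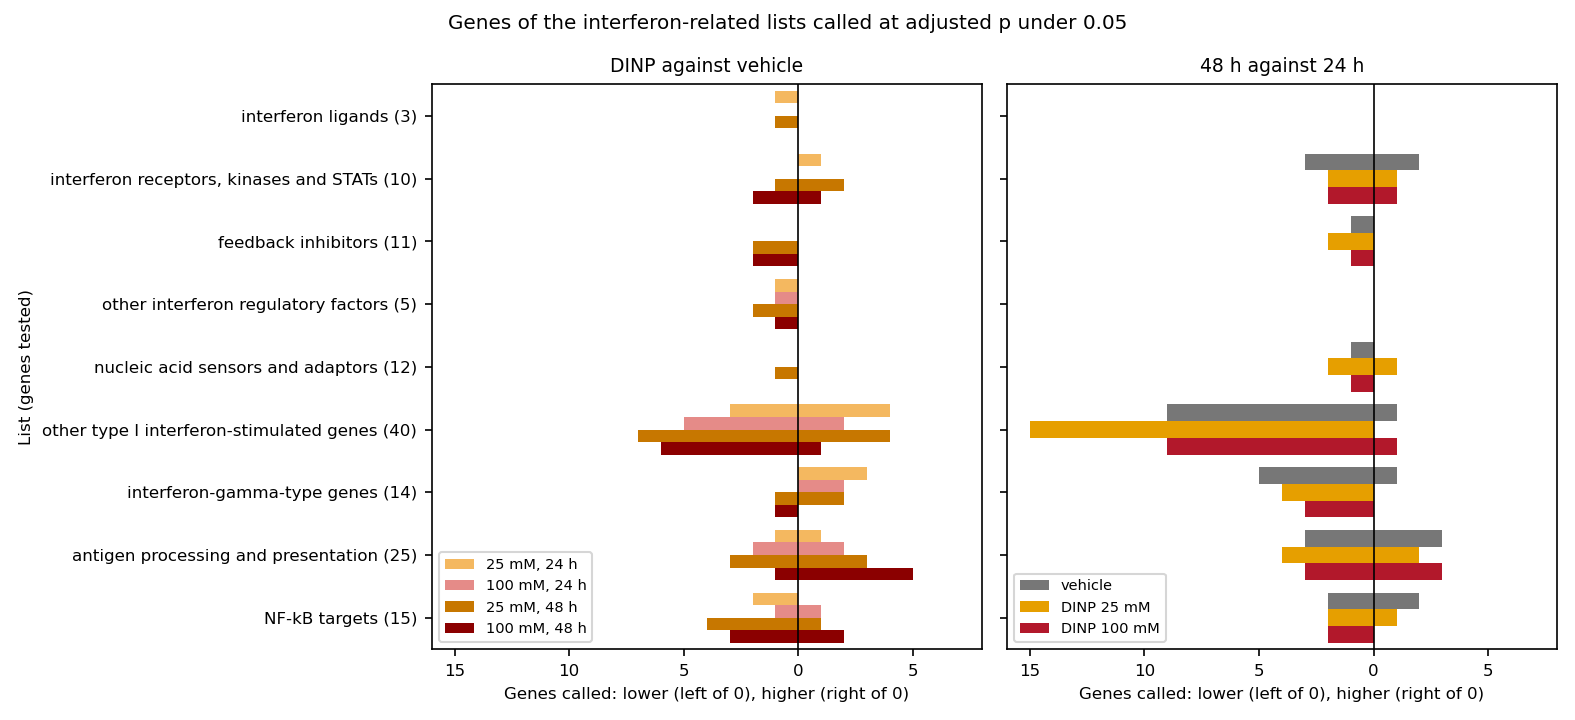
Number of genes called lower (left of 0) and higher (right of 0) in each list, with the number tested in brackets, for DINP against vehicle (left panel) and for 48 h against 24 h in each arm (right panel). The longest bars are those of the other type I interferon-stimulated genes between the times. They show 15 of 40 lower at 25 mM and 9 of 40 in each of the other arms. Among all probe sets 8.2% were called lower at 25 mM, 7.68% in vehicle wells and 4.6% at 100 mM.

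Markers of liver cell types were read beside the decline, since in bulk RNA fewer cells of a type and less RNA per cell cannot be told apart. Of 17 Kupffer cell and macrophage markers, 11 were tested. At 48 h against 24 h, 3 were lower and 1 higher in vehicle wells. At 25 mM 3 were lower and 1 higher, and at 100 mM 0 lower and 1 higher. Among all probe sets 14.4%, 14.6% and 8.89% were called in these arms, and 7.68%, 8.2% and 4.6% were called lower. The same shares apply to the marker counts of the other cell types below. Counts from such short lists are not read as shifts of cell types. In vehicle wells Cd5l was at -1.22 ± 0.19, C1qb at -0.92 ± 0.24 and C1qa at -0.46 ± 0.14, and Cd14 at 0.15 ± 0.05. The summed signal of the 11 markers ran from 29819 to 32659 at 48 h, against 29737 to 31397 at 24 h, in vehicle wells. At 25 mM it ran from 33242 to 38690.0 at 48 h, against 31570.0 to 34312 at 24 h, and at 100 mM from 35634 to 36892, against 30638 to 32394. The sum was no lower at 48 h, but Cd14 and Lyz2, with mean signals of 19263 and 8543, made up most of it. It therefore cannot show a fall of the dimmer markers. The median difference between the times over the 11 markers was -0.29 in vehicle wells, -0.15 at 25 mM and -0.08 at 100 mM. Against the vehicle at 48 h, 3 of the 11 markers were higher and 1 lower at 25 mM, and 3 higher and 0 lower at 100 mM. Among all probe sets 17.9% and 14.6% were called in these comparisons. Those higher with both doses were Cd14, Cd5l and C1qb. The endothelial marker Lyve1, 1 of 4 tested, was lower at 48 h by -0.67 in vehicle wells and -0.58 at 25 mM. The 3 lymphocyte markers (of 16) that could be tested were not called between the times. Nor was Tcf4, the 1 plasmacytoid dendritic cell marker beside Bst2 that could be tested, which differed by -0.75 in vehicle wells, -0.50 at 25 mM and -0.53 at 100 mM. Of 3 cholangiocyte markers tested, 1 was higher at 48 h in vehicle wells and 2 at each dose, with 0 lower. Epcam differed by 0.47, 0.27 and 0.34 in vehicle, 25 mM and 100 mM wells, Tff3 by 0.82 at 25 mM and Krt19 by 0.90 at 100 mM. Of 8 stellate cell and fibroblast markers tested, 1 was lower in vehicle wells (Dcn, -0.69), 1 higher at 25 mM (Rgs5, 0.60) and 0 were called at 100 mM. Of the 11 hepatocyte markers, 2 were lower in vehicle wells, 3 at 25 mM and 2 at 100 mM, with 0 higher. Hnf4a differed by -0.31, -0.23 and -0.25 in that order of arms, Apob by -0.73 and -0.30 in vehicle and 25 mM wells, and Cyp2c11 by -0.55 and -0.64 at 25 and 100 mM. The part of changes in these cells in the decline was not tested.

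Across the 30 arrays, the genes most like each member called in any comparison with the vehicle were found by Pearson's r over 10603 other genes. They are given as a description, since the arrays share doses and times. Bst2 ran closest to Usp18 (r = 0.90), then Spp2 (0.88) and the histone gene H1f2 (0.87). Mx2 ran closest to Rig1 (0.91), Cyp2c23 (0.90), an arachidonic acid epoxygenase, and C6 (0.89), a complement component. Ifi27 ran closest to Ndufa4 (0.89), a respiratory chain protein, Dbi (0.87), an acyl-CoA-binding protein, and Eno1 (0.86), a glycolytic enzyme. The dim Ifit3 ran closest to Fndc3a (0.75), Rrs1 (0.75) and Mex3c (0.74). Within groups, these r were lower, in the same order of genes. They were 0.67, 0.35 and 0.69 for Bst2, and 0.37, 0.49 and 0.36 for Mx2. For Ifi27 they were 0.75, 0.69 and 0.77, and for Ifit3 0.62, 0.66 and 0.69. With the group means removed, wells of one group that were high in Isg15 were also high in Oas1a (r = 0.74) and Mx2 (0.68), and Irf7 went with Mx2 (0.61), over the same 30 arrays. For Irf1 with Irf7 r was -0.13, and for Ifit3 with Ifi27 it was -0.20. These r values share array scaling and carry no p.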

How the data were processed

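RNA of 30 wells was hybridised to Affymetrix rat arrays, per the labels' protocols. The deposited intensities are linear signals, per probe set and array, and were computed by MAS5 according to the submitters' processing notes; its version is not given in the sources used here. Their 2% trimmed mean lay between 1500.7 and 1500.8 on every array, so they had been scaled, and there are no detection calls.

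From these, log2(signal + 16) was computed. Without the 57 control probe sets, 31042 remained, and the 18625 whose mean log2 value reached the 40th percentile (7.956) were tested. Symbols came from the platform annotation (20826 probe sets with 1 gene, 436 with several, 9780 unnamed here), with 20758 updated by Entrez ID in a GRCr8 reference table. RefSeq tables of GRCr8 also gave gene positions and promoters, independent of the values. Where a gene had several tested probe sets, the brightest stood for it. One limma 3.58.1 fit in R 4.3.3 held all 6 groups (24 residual degrees of freedom, variance trend), with Benjamini-Hochberg adjustment over all tested probe sets within each of 11 comparisons. The fit was tested on simulated data. Python 3.11.15, numpy 2.4.6, pandas 2.3.3 and scipy 1.17.1 served for the rest.

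The members and the gene lists were chosen with earlier results of these data known, and the comparisons of the times within the DINP arms were added after seeing the data. Named genes are the members, up to 3 called genes per pathway list, direction and comparison with the vehicle, the 3 genes most like each member called with DINP, markers beside a result, and up to 5 more picked with their values known. Replicates are unnumbered in the labels and were numbered in sample order, which equals the round of array numbers. Over all tested probe sets, same-round arrays of different groups did not deviate together (r -0.061 to 0.099, 0 of 75 pairs over 0.1). Alternatives were another pseudocount, filter, normalisation or variance model, array weights, and the round as a block. Others were the mean of a gene's tested probe sets, only the compared groups, and each array left out.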

Additional observations from a re-analysis of the deposited data

Results flagged for a closer look

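Of 60 groups of 5 wells examined (10 probe sets in 6 groups), 3 held a well far from the other 4, and chance flags about 1 in 20 groups. Isg15 read 1754 in vehicle 48 h replicate 4, against 2419 to 2697 in the other 4 wells of its group. Isg15 also read 2798 in DINP 25 mM 48 h replicate 1, against 1964 to 2133 in the others. The dim second Mx2 probe set read 96.3 in DINP 25 mM 48 h replicate 1, against 181 to 200.3 in the others. Isg15 remained lower at 48 h in both arms without the well concerned.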

How the results depend on the processing

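The calls between the times held under every alternative run, including each array left out. They were those of Irf7, Isg15, Mx2 and Bst2 in all 3 arms and of Oas1a in both DINP arms. Each of these genes had a single tested probe set, so averaging a gene's tested probe sets could not change its difference. The dim second Mx2 probe set was not averaged in. Counts of members called with DINP moved more. Instead of 0 at 25 mM and 24 h, median centring called 1 (Isg15, 0.423), and leaving out 1 array 0 to 1. Instead of 2 at 100 mM and 24 h, 1 was called without the filter on dim probe sets, without the variance trend or with the array round as a replicate block (Ifi27 lost, adjusted p = 0.0562), and 1 to 2 without 1 array. Instead of 2 at 25 mM and 48 h, 1 was called without the filter, without the trend, with array weights or with only the compared groups, 0 with median centring, and 1 to 2 without 1 array. Instead of 2 at 100 mM and 48 h, 1 was called without the filter, with median centring, array weights or only the compared groups, 0 with quantile normalisation, and 1 to 2 without 1 array. The replicate block changed no other member's call. The labels do not pair the wells by round, and over all tested probe sets same-round arrays did not deviate together. A shared round was not tested for single members. Bst2, for example, was lowest in replicate 5 in every group but DINP 25 mM at 48 h.

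Uncalled differences near 0 changed sign. At 24 h and 25 mM these were Ifit3 (0.0416 with quantile normalisation, 0.0398 with median centring, 0.0223 with array weights), Bst2 (-0.093 with quantile normalisation) and Irf1 (-0.0344 with array weights). At 24 h and 100 mM they were Irf1 (0.0659 quantile, 0.079 median centring) and Bst2 (-0.0829 quantile, -0.00728 array weights). At 48 h and 100 mM they were Irf7 (0.0495 quantile, 0.0986 median centring) and Isg15 (0.00101 quantile, 0.0294 median centring), and between the times at 100 mM Ifi27 (0.00253 median centring). Without 1 array, the 24 h differences ran over -0.0892 to 0.131 (Irf1), -0.136 to 0.157 (Ifit3) and -0.0737 to 0.0834 (Bst2) at 25 mM, and -0.0902 to 0.0856 (Irf1), -0.0768 to 0.104 (Irf7) and -0.0675 to 0.0587 (Bst2) at 100 mM. The 48 h ones ran over -0.0987 to 0.0959 (Oas1a) at 25 mM and -0.083 to 0.0767 (Irf7) at 100 mM. Between the times they ran over -0.199 to 0.0211 (Irf1) and -0.0449 to 0.0242 (Ifi27) at 25 mM and -0.0539 to 0.131 (Irf1) at 100 mM. For Isg15 the difference between doses at 48 h ran over -0.00648 to 0.129 and the change of the 100 mM effect over -0.0563 to 0.143. Oas1a in vehicle wells passed between the times with array weights (-0.428, adjusted p = 0.0455), and Mx2 at 100 mM and 48 h with a stricter filter (adjusted p = 0.0462).

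Among all probe sets, rises made up 43.9%, 45.1% and 44.6% of calls at 25 mM and 100 mM after 24 h and at 100 mM after 48 h, and 65.2%, 70.8% and 75.1% with median centring. At 25 mM, 48 h against 24 h, they made up 44%, and 24.9% with median centring, and at 100 mM 48.2% and 59.9%. Calls over all probe sets moved by over 1.5 times between the doses (2 at 24 h, and 0 to 1 with a stricter filter, a gene's mean probe set or only the groups compared; 1 at 48 h, and 0 without the trend or with only the groups compared, 2 with the replicate block, and 0 to 4 without 1 array). The effect of 25 mM differed between the times for 45 probe sets, and for 13 with median centring, and that of 100 mM for 12, and for 20 to 25 with quantile normalisation, array weights, the mean probe set, or without vehicle 48 h replicate 1 or vehicle 24 h replicate 2. The cause of these changes was not tested. The array signals carry no detection calls, so signal over background limits Ifit3, Mx1 and the second Mx2 probe set, and 5 arrays a group limit the rest.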
